A study of Mus musculus with 12 samples.

Results

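The genes described here are a set of cell cycle and DNA replication genes, chosen by name from a list of 40. Of these, 39 were measured by a total of 83 probe sets carrying a single gene symbol, among 18193 genes in all, and Ccnb1 was not analysed here. They comprised 13 replication genes (Cdc6, Cdc45, Mcm2 to Mcm7, Pcna, Rrm1, Rrm2, Tyms and Tk1), 24 mitotic genes, and the cyclins Ccne1 and Ccne2, which were kept apart from both. Total RNA of pulmonary CD11c+ cells, a surface marker shared by alveolar macrophages and dendritic cells, was measured on Affymetrix arrays, 1 array per mouse. The 4 groups held 3 mice each: wildtype mice at day 7, IFNAR-/- mice at day 7, wildtype mice at day 14 and IFNAR-/- mice at day 14. IFNAR-/- mice lack the type I interferon receptor. Every mouse of every group had been given Pneumocystis into the trachea, so no group was uninfected, and the strain, sex and age of the mice are not given in the sources used here. The question named in the labels concerned type I interferon signalling in these cells and the inflammatory response when clearance begins.

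Dividing cells first load the Mcm2 to Mcm7 helicase onto replication origins, a step that needs Cdc6, and then activate it with Cdc45 when S phase starts. Ribonucleotide reductase (Rrm1 and Rrm2), thymidylate synthase (Tyms) and thymidine kinase (Tk1) supply the deoxynucleotides, and cyclin E (Ccne1, Ccne2) drives entry into S phase. In mitosis Cdk1 with cyclins A and B, the Polo and Aurora kinases, the spindle checkpoint and the kinesins separate the chromosomes and the daughter cells. Transcription of the replication genes is classically tied to E2F factors, and that of the mitotic genes to the NF-Y box and the cell cycle homology region (CHR). Lung macrophages and dendritic cells can divide locally, and so can lymphocytes and newly arrived precursors during an infection.

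Promoter sequences are shown for 6 of the 8 members that passed the test in at least 1 comparison, because the replication and mitotic genes differed in the short motifs they carried. RefSeq windows on GRCm38.p6, from 250 bases before to 50 bases after the annotated start, were found for 33 members, in 36 windows. The 250 bases before the start are printed 5′ to 3′ on the strand of the gene, in lower case, with matches of the motifs in capitals. The E2F motif was TTTCCCGC or TTTGGCGC, the NF-Y box was CCAAT, and the CHR was TTTGAA or TTCGAA, each read on both strands. In 0 of the 36 windows did matches of different motifs overlap. Ccne1 and Anln also passed a test but are not printed. The window of Ccne1 held no match of any motif, and that of Anln held only CHR matches, which lay after the start.

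The first pair are the helicase subunits Mcm5 (chr8:75109259-75109508, plus strand) and Mcm6 (chr1:128359706-128359955, minus strand), which hold E2F matches; the second pair are Rrm2 (chr12:24708004-24708253, plus strand) and Cdc45 (chr16:18811973-18812222, minus strand), which hold none. The third pair are the mitotic kinases Cdk1 (chr10:69352913-69353162, minus strand) and Aurka (chr2:172370571-172370820, minus strand). Every printed stretch holds NF-Y boxes, and those of Cdk1 and Cdc45 also hold CHR matches. The last capitals of Cdc45 are the first part of an NF-Y box that runs past the start site.
Mcm5: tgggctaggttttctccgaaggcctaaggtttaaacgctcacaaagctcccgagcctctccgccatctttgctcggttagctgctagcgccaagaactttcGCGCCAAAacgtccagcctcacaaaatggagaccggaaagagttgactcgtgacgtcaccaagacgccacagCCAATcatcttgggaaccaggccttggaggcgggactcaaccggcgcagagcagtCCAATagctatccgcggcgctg
Mcm6: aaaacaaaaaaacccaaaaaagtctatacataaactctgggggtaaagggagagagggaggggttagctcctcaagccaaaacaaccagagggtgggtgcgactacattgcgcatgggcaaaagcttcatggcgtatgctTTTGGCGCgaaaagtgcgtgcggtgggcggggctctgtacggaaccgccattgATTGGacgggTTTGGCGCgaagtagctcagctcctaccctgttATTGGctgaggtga
Rrm2: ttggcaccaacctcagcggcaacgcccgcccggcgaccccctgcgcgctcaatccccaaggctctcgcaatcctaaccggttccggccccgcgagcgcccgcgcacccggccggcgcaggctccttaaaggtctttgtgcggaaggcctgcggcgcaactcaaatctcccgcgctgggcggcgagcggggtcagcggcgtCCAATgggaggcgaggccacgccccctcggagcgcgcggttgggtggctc
Cdc45: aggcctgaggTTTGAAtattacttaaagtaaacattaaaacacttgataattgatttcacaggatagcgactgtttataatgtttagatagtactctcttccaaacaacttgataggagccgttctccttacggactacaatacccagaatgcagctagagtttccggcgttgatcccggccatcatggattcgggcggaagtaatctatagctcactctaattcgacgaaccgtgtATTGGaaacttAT
Cdk1: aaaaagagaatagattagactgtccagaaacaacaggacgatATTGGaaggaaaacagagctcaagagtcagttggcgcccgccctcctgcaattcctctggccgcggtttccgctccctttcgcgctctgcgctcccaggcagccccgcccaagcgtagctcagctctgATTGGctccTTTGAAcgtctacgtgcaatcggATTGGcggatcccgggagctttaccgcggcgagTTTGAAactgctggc
Aurka: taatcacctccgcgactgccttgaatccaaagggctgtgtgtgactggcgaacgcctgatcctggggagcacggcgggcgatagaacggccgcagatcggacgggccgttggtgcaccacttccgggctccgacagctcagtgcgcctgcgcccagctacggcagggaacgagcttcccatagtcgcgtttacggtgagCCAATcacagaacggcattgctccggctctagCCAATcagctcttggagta

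Over the whole windows, 5 of 13 windows of replication genes held an E2F match (38.5%), those of Cdc6, Mcm3, Mcm5, Mcm6 and Mcm7, as did 0 of 22 windows of mitotic genes and 1.6% of all 32851 promoter windows of the table. The NF-Y box was found in 76.9% of replication windows and 81.8% of mitotic windows, against 37.4% of all windows. A CHR match was present in 18 of the 22 mitotic windows (81.8%), against 3 of the 13 replication windows (23.1%) and 19.2% of all windows. It lay within 50 bases of the start site in 17 mitotic windows, in 1 replication window (Cdc45) and in 5.3% of all windows. In Cdk1 matches began at -71 and -15 and in Aurka at 33, counted in bases from the start site, so that the printed Aurka stretch does not show it. Several windows belonged to the same gene (Mcm7, Ect2 and Prc1 have 2 each), and a match is a string of letters, not a bound site.

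**Figure D1:**
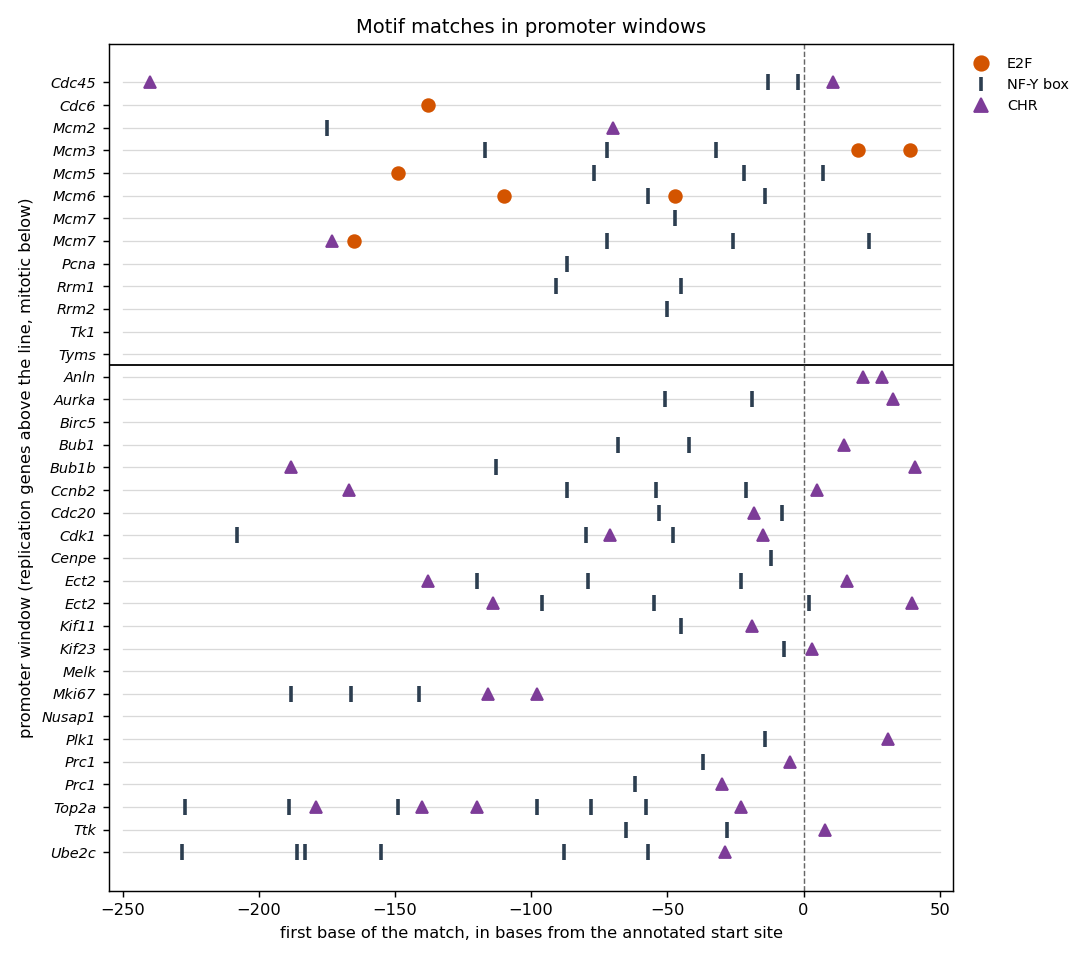
Matches of 3 motifs in the promoter windows of 12 replication genes (above the line) and 20 mitotic genes (below), by distance in bases from the annotated start site (dashed). E2F matches lie only in replication windows here, and CHR matches gather around the start site of 17 of the 22 mitotic windows.

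The deposited values are ratios to about the median of each probe set over the 12 arrays, so that a log2 ratio of 0 marks that median and levels cannot be compared between genes or checked against the markers of the labelled cell type. Per the labels, the sorted cells were over 90% pure with under 5% lymphocytes. Of the 2 Ifnar1 probe sets, one was lower in every IFNAR-/- array than in every wildtype array of the same day and the other overlapped. The arrays of IFNAR-/- day 7 mouse 3 and wildtype day 7 mouse 1 stood apart by lung epithelial markers (median log2 ratio 2.39 and 2.42; the other 10 arrays lay between -0.55 and 0.37), and that of IFNAR-/- day 14 mouse 2 by the widest spread of all values (interquartile range 0.582, against 0.188 to 0.371). The 3 wildtype day 14 arrays had the log2 5′ over 3′ control signals -0.24, -0.18 and -0.91, and the only lower one than -0.18 elsewhere was -0.52 in IFNAR-/- day 7 mouse 2. Their 18S RNA control signals were 2.5, 0.30 and 0.93, and those of the other arrays ran from -0.45 to 0.92. Their poly-A spike-in signals were -2.23, -2.06 and -3.63, and those of the other arrays ran from -3.82 to 2.20. The part of these signals in the members' values was tested only as a covariate, for the 5′ over 3′ and the poly-A signals. The sorted cells were measured in bulk, so fewer dividing cells and less RNA of these genes per cell cannot be told apart.

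Across the 4 groups the cell cycle genes were lowest in wildtype cells at day 14. That group had the lowest mean in 30 of 39 members, and the highest mean belonged to wildtype day 7 in 20 and to IFNAR-/- day 14 in 18. The median member stood at 0.27, 0.01 and 0.12 in the 3 wildtype day 7 mice and at -0.10, -0.27 and -0.03 in the IFNAR-/- day 7 mice. At day 14 it stood at -0.50, -0.71 and 0.03 in wildtype and at 0.36, -0.13 and 0.16 in IFNAR-/- mice. The low position of the wildtype day 14 group rested on mice 1 and 2, which were the lowest 2 of all 12 arrays in 17 of 39 members. Mouse 3 of that group was its highest in 38 of 39 members, and lay above 0 in 22.

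Mice of a group differed more at day 14 than at day 7. The median SD of the members was 0.15 in IFNAR-/- and 0.16 in wildtype mice at day 7, close to 0.13 and 0.11 for all genes. At day 14 it was 0.33 in IFNAR-/- and 0.40 in wildtype mice, against 0.19 and 0.16 for all genes. Among IFNAR-/- day 14 mice, mouse 1 was highest in 29 of 39 members and mouse 2 lowest in 32. The widest SD was that of Mcm4 in IFNAR-/- day 14 (0.96) and of Cdc6 in wildtype day 14 (0.88), while Aurka had the narrowest in both IFNAR-/- groups (0.02 and 0.03) as the mean of 2 probe sets.

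**Figure D2:**
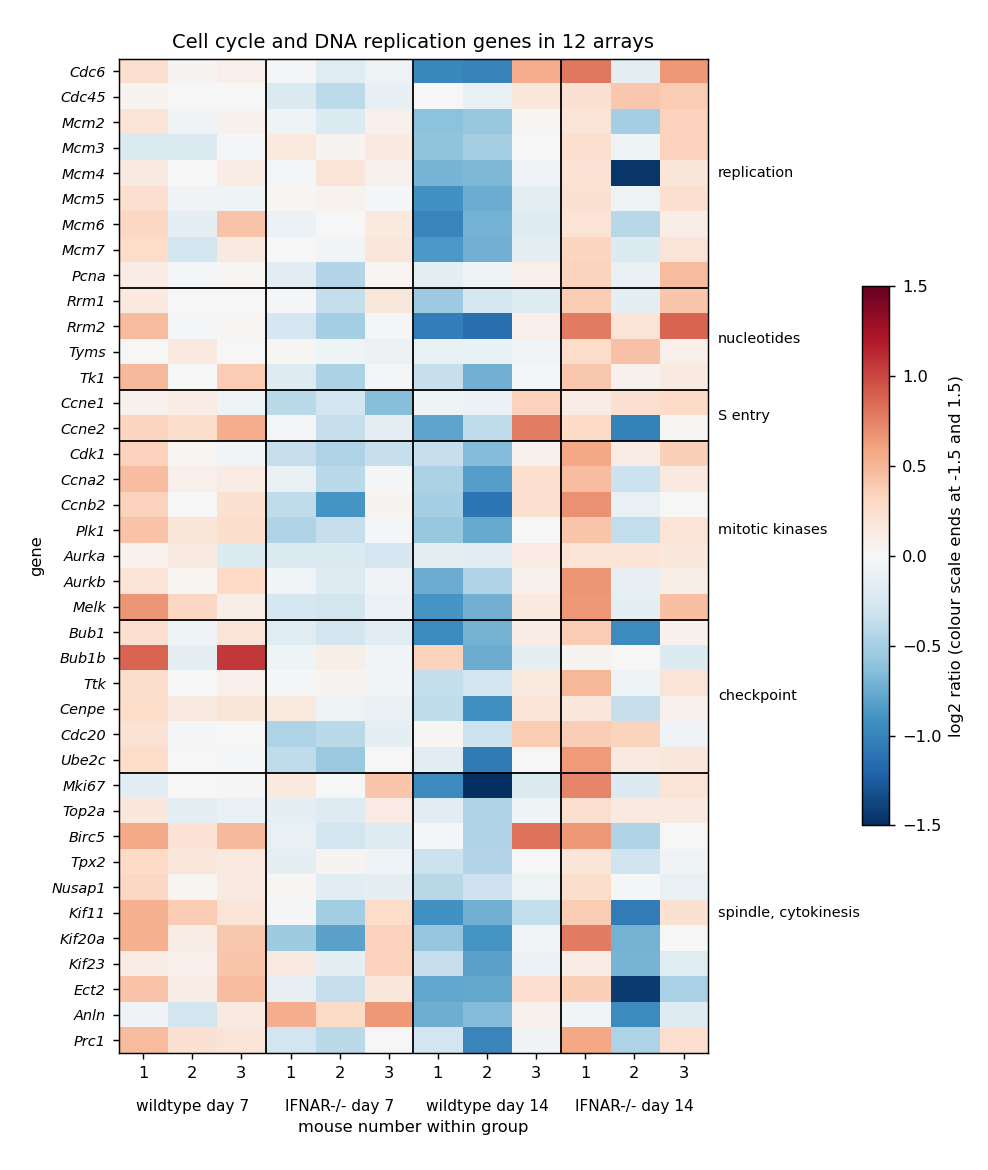
Log2 ratios of the 39 members (rows, grouped by role) in the 12 arrays (columns, 3 mice per group), with red above and blue below the median of the 12 arrays and colours ending at -1.5 and 1.5. Wildtype day 14 mice 1 and 2 are low across most roles, and mouse 3 of that group is not.

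At day 7 no member passed the test between genotypes, and most had a lower mean in IFNAR-/- cells. By limma with Benjamini-Hochberg adjustment over all genes, 0 of 39 members passed 0.05, where 2.64% of all genes did, 1.29% higher and 1.35% lower. At an unadjusted p under 0.05 by the same fit, 6 members were lower (6.34% of all genes) and 1 higher (7.41%). The difference was above 0 in 3 of 39 members (49.7% of all genes), with a median of -0.27, against 0 for all genes. In 17 members every IFNAR-/- mouse lay below every wildtype mouse (11.6% of all genes), and in 2, Anln and Mcm3, above (12.4%). Without wildtype day 7 mouse 1 the median was -0.26, with 7 members above 0. With array weights 4 members passed, 1 higher and 3 lower, and with the 5′ over 3′ control signal in the fit 1 passed, lower. More of all genes also passed with array weights than without them. The 4 calls therefore cannot be set beside the 2.64%, which belongs to the fit without weights, and do not show an excess among the members.

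At day 14 the lean was the other way, and Rrm2 and Mcm5 were higher in IFNAR-/- cells. These were 2 of 39 members past the threshold of limma with Benjamini-Hochberg adjustment, where 5.04% of all genes passed, 1.75% higher and 3.29% lower. The difference was above 0 in 36 members (50.5% of all genes), with a median of 0.40, against 0 for all genes. At an unadjusted p under 0.05, 19 members were higher (8.41% of all genes) and 0 lower (12.6%), and in 11 members the groups did not overlap, with IFNAR-/- higher (10.2%). The count of calls depended on single mice, here and in the comparisons below. The share of all genes past the threshold in each such fit is not given. Dropping wildtype day 14 mouse 3 gave 8 and dropping IFNAR-/- day 14 mouse 2 gave 6, and Mcm3, Mcm5, Mki67 and Rrm2 passed in both. The median was then 0.62 and 0.66, with 39 of 39 members above 0 in each. The count of calls was 0 without IFNAR-/- day 7 mouse 1 or IFNAR-/- day 14 mouse 1 or mouse 3. That count was also 0 without wildtype day 14 mouse 1 or mouse 2, and 1 without any of the other 5 mice. When the fit held the 5′ over 3′ control signal, 0 members passed and the median was 0.55.

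From day 7 to day 14 wildtype cells moved down, and only Mcm6 passed the test. It was 1 of 39 members past the threshold of limma with Benjamini-Hochberg adjustment, where 7.98% of all genes passed, 3.88% rising and 4.1% falling. The change was above 0 in 1 member (53.6% of all genes), Ccne1, and its median was -0.56, against 0.02 for all genes. At an unadjusted p under 0.05, 18 members were lower (10.9% of all genes) and 0 higher (11.2%), and in 14 every day 14 mouse lay below every day 7 mouse (15.2%), with 0 the other way (16%). Leaving out wildtype day 14 mouse 3 gave 11 members that fell, with a median of -0.78. Leaving out IFNAR-/- day 14 mouse 2 gave 6, and leaving out wildtype day 7 mouse 2 gave 2. Leaving out any of the other 9 mice gave 0. A covariate for the 5′ over 3′ signal left 0 calls and a median of -0.78, and one for the poly-A signal also left 0.

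In IFNAR-/- cells 4 members rose over the same interval, Cdc45, Ccne1, Cdk1 and Aurka, and Anln fell. These 5 of 39 compare with 12.3% of all genes past the same limma threshold, 4.08% rising and 8.25% falling. The change was above 0 in 29 members (53.1% of all genes) and had a median of 0.26, against 0.02 for all genes. At an unadjusted p under 0.05, 10 were higher (12.5% of all genes) and 1 lower (16.1%). In 10 members every day 14 mouse lay above every day 7 mouse (16.2% of all genes), and in 1, Anln, below (17.8%). Cdc45 and Ccne1 passed without each of the 12 mice in turn. Dropping wildtype day 14 mouse 3 gave 7 calls and dropping IFNAR-/- day 14 mouse 2 gave 4, without Anln. The count fell to 2 without any 1 of the 3 IFNAR-/- day 7 mice, and to 3 without IFNAR-/- day 14 mouse 1 or mouse 3 or wildtype day 7 mouse 1. The median was 0.07 without IFNAR-/- day 14 mouse 1 and 0.40 without mouse 2 of that group.

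The genotype difference at day 14 minus that at day 7 was above 0 in 38 of 39 members (49.2% of all genes), Anln being the exception. Its median was 0.67, against -0.01 for all genes. Only Cdk1 passed the limma test of this change after Benjamini-Hochberg adjustment, as did 2.48% of all genes, 1.14% upward and 1.34% downward. At an unadjusted p under 0.05, 24 members changed upward (7.29% of all genes) and 0 downward (10.8%). In 4 members, Cdc45, Rrm2, Tk1 and Cdk1, every IFNAR-/- mouse lay below every wildtype mouse at day 7 and above every wildtype mouse at day 14, as in 1.41% of all genes. These were means over the probe sets of a gene, and the day 14 genotypes of Cdc45 overlapped in each of its 2 probe sets. The genotypes of Rrm2 also overlapped in some of its probe sets. The comparisons within a genotype share arrays with those within a day, so their values are given side by side and are not independent of each other. Dropping wildtype day 14 mouse 3 gave 5 calls, dropping IFNAR-/- day 14 mouse 2 gave 4, and dropping wildtype day 7 mouse 3 left 1. Dropping any of the other 9 mice gave 0, as did a covariate for the 5′ over 3′ or for the poly-A signal.

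**Figure D3:**
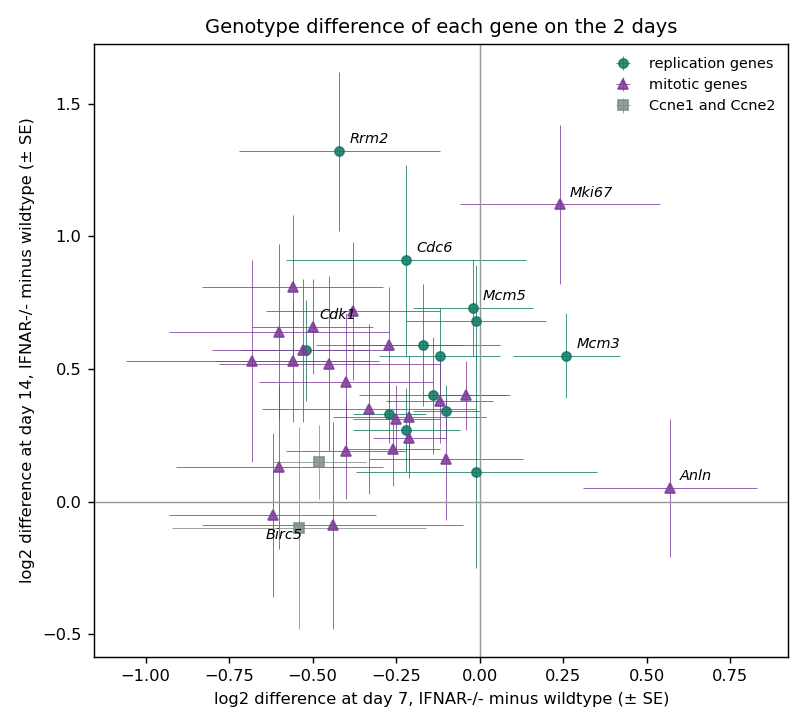
Log2 difference IFNAR-/- minus wildtype of each member at day 7 (x axis) and day 14 (y axis), with the standard error of the limma fit. Most of the 39 points lie left of 0 (36) and above 0 (36), Mki67, Anln and Mcm3 lie to the right, and Rrm2 is the highest.

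Among the genes of replication licensing and the fork, Mcm5 was higher in IFNAR-/- cells at day 14 and Mcm6 fell in wildtype cells. By gene means in the fit of all 12 mice, the other Mcm subunits passed no test. The log2 ratio of Mcm5 was 0.25, -0.05 and -0.07 in wildtype mice and 0.03, 0.05 and -0.03 in IFNAR-/- mice at day 7. Its day 14 values were -0.91, -0.75 and -0.14 in wildtype mice and 0.23, -0.08 and 0.25 in IFNAR-/- mice. The day 14 groups did not overlap, and only the wildtype day 14 mice left the narrow range of the rest. Mcm5 was 1.66-fold higher in IFNAR-/- cells at day 14 (log2 difference 0.73 ± 0.18 SE, n = 3 per group, limma adjusted p = 0.044), and differed by -0.02 ± 0.18 at day 7. The call held without 2 of the 12 single mice, with adjusted p between 0.00885 and 0.136 over all alternatives, and its 3 probe sets gave 1.14, 0.72 and 0.33.

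Mcm6, another helicase subunit, was the member that fell in wildtype cells. It stood at 0.31, -0.15 and 0.43 in wildtype mice and -0.09, 0.01 and 0.15 in IFNAR-/- mice at day 7. Its day 14 values were -0.99, -0.71 and -0.19 in wildtype mice and 0.20, -0.42 and 0.10 in IFNAR-/- mice. All wildtype day 14 mice lay below all wildtype day 7 mice, mouse 3 by a small gap, and the IFNAR-/- groups overlapped. The fall in wildtype cells was 1.77-fold (log2 change -0.83 ± 0.23, limma adjusted p = 0.0485), and in IFNAR-/- cells the change was -0.06 ± 0.23. The call held without 3 of the 12 single mice. Its 3 probe sets gave -0.99, -1.58 and 0.09, so 1 of them did not move with the other two.

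In wildtype cells the change from day 7 to day 14 was -0.46 ± 0.22 for Mcm2, -0.22 ± 0.16 for Mcm3, -0.56 ± 0.36 for Mcm4 and -0.62 ± 0.21 for Mcm7. Their differences at day 14, IFNAR-/- minus wildtype, were 0.40 ± 0.22, 0.55 ± 0.16, 0.11 ± 0.36 and 0.68 ± 0.21. Mcm4 was pulled by 1 array, at -1.46 in IFNAR-/- day 14 mouse 2 beside 0.22 and 0.18 in the other mice of the group. Mcm3 differed between its 5 probe sets at day 14, which gave 1.78 (limma adjusted p = 0.00455 by itself), 0.54, 0.37, 0.07 and -0.03. The probe sets of Mcm7 gave 1.04 (adjusted p = 0.0222 by itself), 0.67, 0.56 and 0.45 there. Cdc6, the loading factor of the helicase, spread most widely within wildtype day 14, with -0.97, -1 and 0.54, and its genotype difference there was 0.91 ± 0.36 (limma adjusted p = 0.178).

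Cdc45, which completes the active helicase at the start of S phase, stayed near its median in wildtype cells. Its log2 ratio was 0.04, 0.01 and 0 in wildtype mice and -0.22, -0.39 and -0.12 in IFNAR-/- mice at day 7. At day 14 it was -0.01, -0.11 and 0.16 in wildtype mice and 0.23, 0.41 and 0.38 in IFNAR-/- mice. By this mean of 2 probe sets the IFNAR-/- mice lay below the wildtype mice at day 7 and above them at day 14. The wildtype means stayed close to 0 on both days. The probe sets differed in the wildtype day 14 mice, at -0.35, -0.14 and 0.35 and at 0.32, -0.07 and -0.02. In each probe set by itself the day 14 genotypes overlapped. Cdc45 rose 1.5-fold in IFNAR-/- cells (log2 change 0.59 ± 0.11, limma adjusted p = 0.00604) and passed under all 23 alternatives, with adjusted p from 0.00057 to 0.0389. Its 2 probe sets gave 0.76 (adjusted p = 0.0184 by itself) and 0.41 (adjusted p = 0.114). In wildtype cells the change was -0.01 ± 0.11, and the test of the difference between these changes gave 0.59 ± 0.15 with an adjusted p of 0.0633.

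Pcna, the sliding clamp of the replicative polymerases, varied little in wildtype cells. It was 0.11, -0.02 and 0.02 in wildtype mice and -0.16, -0.44 and 0.03 in IFNAR-/- mice at day 7, and its day 14 values were -0.15, -0.06 and 0.08 in wildtype mice and 0.33, -0.11 and 0.47 in IFNAR-/- mice at day 14. The groups overlapped on each day. Its change in IFNAR-/- cells was 0.42 ± 0.16 (limma adjusted p = 0.112) and its difference at day 14 was 0.27 ± 0.16 (adjusted p = 0.369).

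The genes of nucleotide supply included the member with the largest genotype difference at day 14. Rrm2, the regulated subunit of ribonucleotide reductase, was 0.48, -0.02 and 0.02 in wildtype mice and -0.25, -0.51 and -0.03 in IFNAR-/- mice at day 7. The day 14 ratios were -1.04, -1.13 and 0.08 in wildtype mice and 0.78, 0.21 and 0.87 in IFNAR-/- mice. By gene means the genotypes did not overlap on either day, IFNAR-/- mice being the lower at day 7 and the higher at day 14. The nearest values at day 7 were -0.03 and -0.02. In a single probe set IFNAR-/- mouse 3 stood at 0.269 and wildtype mouse 3 at -0.012 at day 7. Another overlapped on both days, at day 14 with -0.028 in IFNAR-/- mouse 2 and -0.023 in wildtype mouse 3. The remaining probe set did not overlap. Rrm2 was 2.49-fold higher in IFNAR-/- cells at day 14 (log2 difference 1.32 ± 0.30, 95% interval 0.65 to 1.98, limma adjusted p = 0.0323), the largest difference of the 39 members. The call held without 7 of the 12 single mice, with adjusted p from 0.00534 to 0.126 over all alternatives, and its 3 probe sets gave 1.52, 0.96 and 1.47. At day 7 the difference was -0.42 ± 0.30 (adjusted p = 0.678), and the change between days, 1.74 ± 0.43, had an adjusted p of 0.0564.

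For Rrm1, the large subunit of the same enzyme, the day 14 difference was 0.55 ± 0.18, for Tyms 0.34 ± 0.10 and for Tk1 0.57 ± 0.19. The adjusted p by limma was 0.101, 0.0855 and 0.122. In all 4 nucleotide genes every IFNAR-/- mouse lay above every wildtype mouse at day 14, as in 10.2% of all genes. The 3 probe sets of Rrm1 disagreed there, with differences of 1.69 (adjusted p = 0.0168 when each probe set was tested by itself), 0 and -0.04. Tk1, which salvages thymidine, was 0.49, 0.01 and 0.38 in wildtype day 7 mice and -0.35, -0.72 and -0.02 in wildtype day 14 mice, with no overlap. Its change in wildtype cells was -0.66 ± 0.19 (adjusted p = 0.0639).

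The cyclins of S phase entry differed from each other. Ccne1 was 0.06, 0.11 and -0.07 in wildtype mice and -0.41, -0.29 and -0.64 in IFNAR-/- mice at day 7. By day 14 it stood at -0.07, -0.09 and 0.35 in wildtype mice and 0.11, 0.24 and 0.29 in IFNAR-/- mice. Only the IFNAR-/- day 7 mice were low, with no overlap with any other group. Ccne1 rose 1.58-fold in IFNAR-/- cells (log2 change 0.66 ± 0.14, limma adjusted p = 0.0113) and passed in 22 of 23 alternatives, while its difference between genotypes at day 7 was -0.48 ± 0.14 (adjusted p = 0.104). Ccne2 spread widely at day 14, from -1.01 to 0.30 in IFNAR-/- and from -0.79 to 0.77 in wildtype mice, and passed in no comparison.

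**Figure D4:**
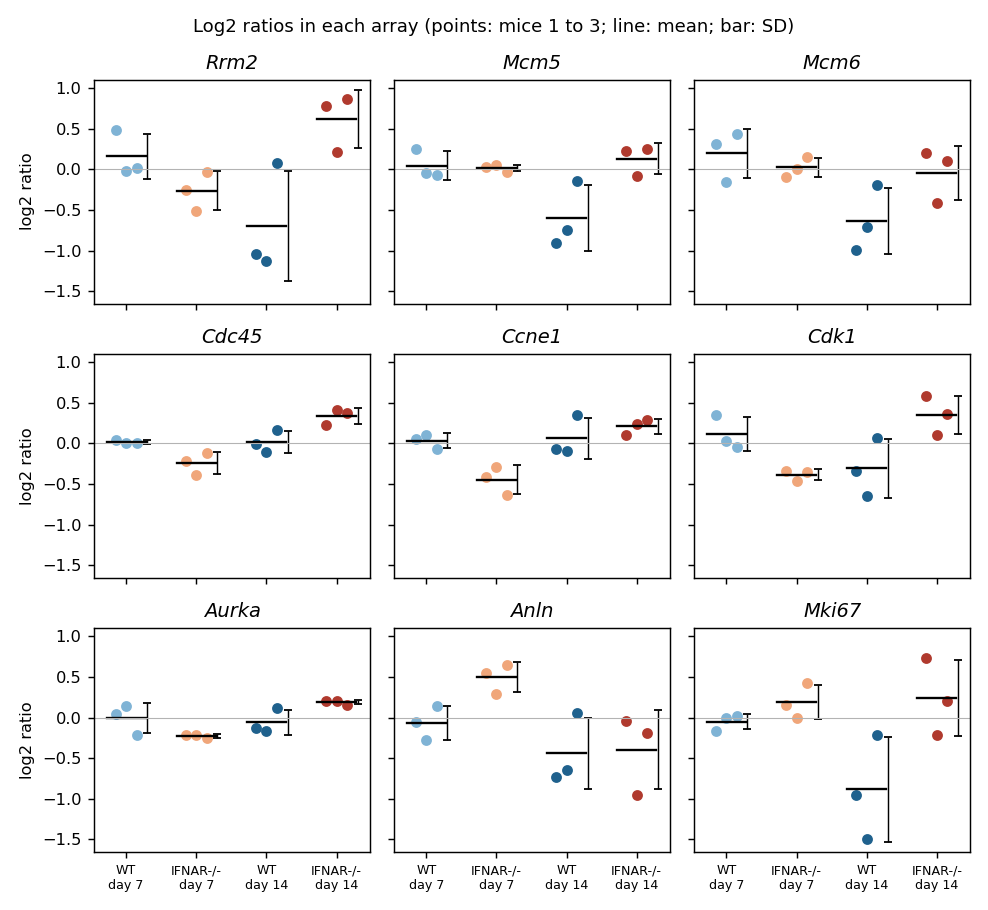
Log2 ratios of 9 members in each mouse (points), with the mean (line) and SD (bar) of the 3 mice of a group. Rrm2, Mcm5, Mcm6 and Mki67 have their lowest mean in wildtype day 14 mice, where mouse 3 lies above mice 1 and 2. Cdc45, Ccne1 and Aurka have their lowest mean in IFNAR-/- day 7 mice, and Anln has its highest there.

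Among the cyclins and kinases of mitosis, Cdk1, the kinase that starts mitosis, separated the genotypes on both days. It was 0.35, 0.03 and -0.04 in wildtype mice and -0.34, -0.46 and -0.35 in IFNAR-/- mice at day 7. At day 14 it was -0.34, -0.65 and 0.07 in wildtype mice and 0.58, 0.11 and 0.36 in IFNAR-/- mice. IFNAR-/- mice were thus all lower at day 7 and all higher at day 14, the nearest values at day 14 being 0.07 and 0.11. The genotype difference was -0.50 ± 0.18 at day 7 (limma adjusted p = 0.22) and 0.66 ± 0.18 at day 14 (adjusted p = 0.0636), and its change of 1.15 ± 0.26 passed (adjusted p = 0.0438, from 0.00705 to 0.185 over the alternatives). Leaving out single mice, that change passed in 3 of 12 fits. Within IFNAR-/- cells Cdk1 rose 1.66-fold (log2 change 0.73 ± 0.18, adjusted p = 0.0254), which held in 7 of 12.

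Aurka, the Aurora kinase of the spindle poles, rose in IFNAR-/- cells by 0.41 ± 0.11 on the log2 scale, or 1.33-fold (limma adjusted p = 0.0378). Its values were -0.21, -0.21 and -0.25 at day 7 and 0.20, 0.21 and 0.16 at day 14 in IFNAR-/- mice, and 0.05, 0.14 and -0.21 at day 7 and -0.13, -0.16 and 0.12 at day 14 in wildtype mice. The IFNAR-/- mice did not overlap between days, and the wildtype days overlapped. The narrow spread came from averaging 2 probe sets that differed, at 0.33, 0.04 and 0.27 and at 0.07, 0.37 and 0.04 in the IFNAR-/- day 14 mice. Their changes in IFNAR-/- cells were 0.60 (adjusted p = 0.0501) and 0.22 (adjusted p = 0.355), so that neither passed by itself. The call held without 5 of the 12 single mice.

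The other 5 members of this role (Ccna2, Ccnb2, Plk1, Aurkb and Melk) passed in no comparison by their gene means. Their differences ran from -0.60 (Ccnb2) to -0.27 (Aurkb) at day 7 and from 0.45 (Ccna2) to 0.81 (Melk) at day 14. The probe sets of Aurkb disagreed at day 14, with 0.93 (limma adjusted p = 0.0147 by itself) and 0.26 (adjusted p = 0.669). The former also passed by itself for the rise in IFNAR-/- cells (0.64) and for the change between days (1.19), and the latter did not. The change between days was largest for Melk, a kinase of proliferating cells, at 1.37 ± 0.38 (limma adjusted p = 0.0835), and was 1.09 ± 0.32 for Plk1, the Polo kinase (adjusted p = 0.102). All 7 members of the role had an unadjusted p under 0.05 for that change, as had 7.29% of all genes.

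In the spindle checkpoint and anaphase group (Bub1, Bub1b, Ttk, Cenpe, Cdc20 and Ube2c), no member passed in any comparison by its gene mean. All 6 differences were below 0 at day 7, with a median of -0.36, and above 0 at day 14, with a median of 0.34. Ube2c, the ubiquitin-conjugating enzyme of the anaphase-promoting complex, had the largest at day 14, 0.72 ± 0.26 (limma adjusted p = 0.14). Cdc20, an activator of that complex, was -0.46, -0.41 and -0.15 in IFNAR-/- day 7 mice and 0.37, 0.33 and -0.05 in IFNAR-/- day 14 mice, without overlap, with a change of 0.56 ± 0.18 (adjusted p = 0.0644). The probe sets of Cdc20 gave 0.64 (limma adjusted p = 0.0138 by itself), 0.42 and 0.62 for that change. Bub1b, a checkpoint kinase-like protein, had high values in 2 wildtype day 7 mice, 0.87 and 1.06, beside -0.15 in the other.

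Of the 11 genes of the spindle, chromosomes and cytokinesis, 1 passed, and several differed from the common pattern. Mki67, which encodes the proliferation antigen Ki-67, was -0.16, -0.01 and 0.02 in wildtype mice and 0.15, 0 and 0.42 in IFNAR-/- mice at day 7. In day 14 mice it was -0.95, -1.49 and -0.21 in wildtype mice and 0.73, -0.21 and 0.20 in IFNAR-/- mice. The wildtype day 14 mice were the lowest and did not overlap with the IFNAR-/- mice, although mouse 3 lay level with IFNAR-/- mouse 2 to the digits printed. The difference at day 14 was 1.12 ± 0.30, or 2.18-fold (limma adjusted p = 0.0533), and at day 7 it was 0.24 ± 0.30, not below 0 as in 36 other members.

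Top2a, the topoisomerase that untangles sister chromatids, passed in no comparison. It was 0.16, -0.14 and -0.10 in wildtype mice and -0.13, -0.19 and 0.12 in IFNAR-/- mice at day 7, then -0.17, -0.45 and -0.06 in wildtype mice and 0.24, 0.13 and 0.14 in IFNAR-/- mice at day 14. The day 14 groups did not overlap, and the difference was 0.40 ± 0.13 (limma adjusted p = 0.107). Its 3 probe sets disagreed, with changes of -0.82, 0.12 and 0.10 in wildtype cells and day 14 differences of 0.59, 0.07 and 0.54.

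Anln, which encodes the cytokinetic ring protein anillin, was the one member whose genotype difference changed downward between days (-0.52 ± 0.36, not past the test). It was 0.55, 0.29 and 0.65 in IFNAR-/- and -0.05, -0.28 and 0.14 in wildtype mice at day 7. At day 14 it was -0.04, -0.95 and -0.19 in IFNAR-/- and -0.73, -0.65 and 0.06 in wildtype mice. Only the IFNAR-/- day 7 mice were high, and the day 14 genotypes overlapped. It fell 1.86-fold in IFNAR-/- cells (log2 change -0.89 ± 0.26, limma adjusted p = 0.0435), a call that held without 3 of 12 single mice. Its 2 probe sets gave -1.18 and -0.61 there, and -0.95 and 0.20 in wildtype cells. The day 7 difference was 0.57 ± 0.26 (adjusted p = 0.356).

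The kinesins and their partners spread widely. In wildtype cells the change to day 14 was largest for Kif11, the bipolar spindle kinesin, at -1.03 ± 0.33 (limma adjusted p = 0.0879), and was -0.85 ± 0.38 for Kif20a, -0.61 ± 0.23 for Kif23 and -0.74 ± 0.27 for Prc1, which bundles midzone microtubules. Every day 14 mouse lay below every day 7 mouse in these 4 and in Mki67, Tpx2 and Nusap1, that is in 7 of the 11, against 15.2% of all genes. Ect2, the exchange factor that starts cytokinesis, and Birc5, which encodes survivin, had day 14 genotype differences of -0.09 ± 0.39 and -0.05 ± 0.31, the only mitotic members below 0. In Ect2 the IFNAR-/- day 14 values were 0.36, -1.44 and -0.49.

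Replication and mitotic genes were set side by side, with no test, since the lists were chosen with earlier results known. At day 7 the median difference between genotypes was -0.14 over the 13 replication genes and -0.39 over the 24 mitotic genes, a gap of 0.25. At day 14 the medians were 0.55 and 0.39, a gap of 0.16. In wildtype cells both lists moved down alike from day 7 to day 14, by medians of -0.56 and -0.57, and in IFNAR-/- cells the medians were 0.29 and 0.25. The change of the genotype difference had medians of 0.67 and 0.70. By means in place of medians, the replication minus mitotic gap was 0.17 at day 7, 0.16 at day 14, 0.09 in wildtype cells over time, 0.08 in IFNAR-/- cells over time and -0.01 for the change of the genotype difference. The same quantity in single arrays varied between mice of a group by 0.12 (pooled SD). This SD describes single mice, whereas the gaps are differences between group means. It therefore cannot decide which gaps lie beyond the variation between mice.

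The narrower set of Mcm2 to Mcm7, Rrm1, Rrm2 and Pcna gave a median of -0.12 at day 7 and 0.55 at day 14. In IFNAR-/- cells it changed by a median of 0.08 from day 7 to day 14, below the 0.25 of the mitotic genes, whereas the wider list lay above them. Within single arrays the 2 lists mostly moved together. IFNAR-/- day 14 mouse 3 stood out by a replication median of 0.34 beside a mitotic median of 0.08, and wildtype day 14 mouse 1 by -0.61 beside -0.40. The gap at day 7 was 0.16 when wildtype day 7 mouse 1 was left out. At day 14 the gap was 0.04 with wildtype day 14 mouse 1 left out and 0.09 with mouse 3 left out, and for the wildtype time course it was 0.19 with mouse 1 left out. A difference in sign between the probe sets of 1 gene was seen in 12 of the 26 members with several at day 7 and in 8 at day 14.

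**Figure D5:**
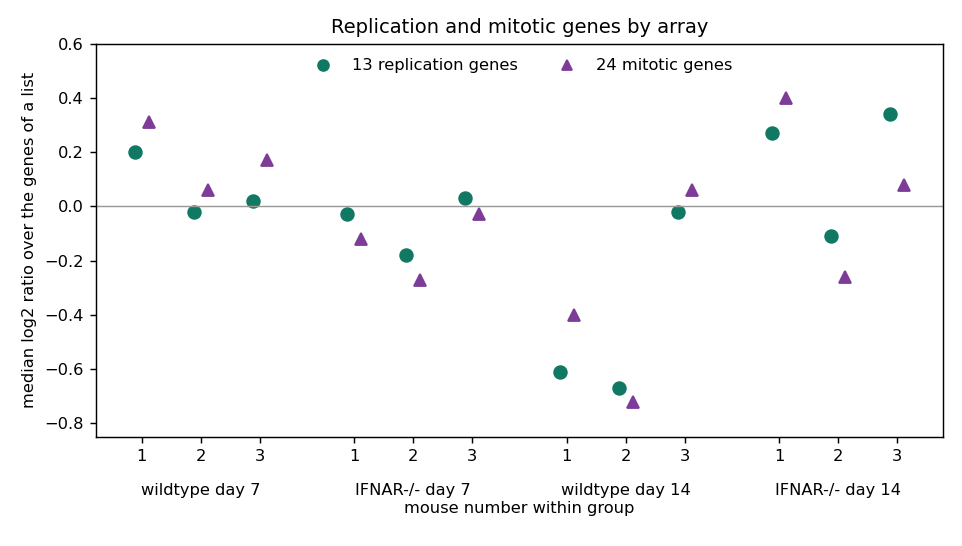
Median log2 ratio over the 13 replication genes (circles) and the 24 mitotic genes (triangles) in each of the 12 mice. Wildtype day 14 mice 1 and 2 are lowest for both lists (-0.61 and -0.67, -0.40 and -0.72), while mouse 3 of that group lies near 0.

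Other genes of the same processes were read from lists chosen by name. The shares of all genes to set beside their counts were 1.29% higher and 1.35% lower at day 7. At day 14 they were 1.75% higher and 3.29% lower. Over time 3.88% of all genes rose and 4.1% fell in wildtype cells, and 4.08% rose and 8.25% fell in IFNAR-/- cells. Of 26 further replication genes, Gins1, a subunit of the active helicase complex, was lower in IFNAR-/- cells at day 7 (log2 difference -0.53 ± 0.09, limma adjusted p = 0.013), and 0 of the 26 were higher. At day 14 Pole, the catalytic subunit of the leading-strand polymerase, was the 1 that was higher and 0 were lower. Pole was 0.37, 0.15 and 0.18 in wildtype mice and -0.20, -0.24 and -0.16 in IFNAR-/- mice at day 7, and -0.75, -0.48 and -0.24 in wildtype mice and 0.34, 0.27 and 0.43 in IFNAR-/- mice at day 14. By gene means the genotypes were apart on both days, in opposite directions, as in Cdc45, Rrm2, Tk1 and Cdk1. The Pole difference was 0.84 ± 0.13 at day 14 (adjusted p = 0.00807) and its change between days 1.27 ± 0.18 (adjusted p = 0.00876), which passed without each of the 12 mice in turn.

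In wildtype cells 3 of the 26 fell, Pole (-0.72 ± 0.13), Uhrf1 (-1.39 ± 0.27), which recruits DNA methyltransferase to new DNA, and Timeless (-0.68 ± 0.15), which protects the fork, with limma adjusted p of 0.00766, 0.0125 and 0.0186. In IFNAR-/- cells 5 rose and 0 fell, among them Rfc3, a subunit of the clamp loader, by 0.94 ± 0.18 (adjusted p = 0.00858), Gins1 by 0.50 ± 0.09 (adjusted p = 0.00605) and Pole by 0.55 ± 0.13 (adjusted p = 0.0184). The median of the list was -0.12 at day 7 and 0.09 at day 14.

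Of 40 further mitotic genes, 3 were lower in IFNAR-/- cells at day 7 and 0 higher. These were Nuf2, a kinetochore subunit (-0.93 ± 0.19, limma adjusted p = 0.027), Pttg1, which encodes securin (-0.92 ± 0.20, adjusted p = 0.0388), and Cenpa, the centromeric histone (-0.49 ± 0.11, adjusted p = 0.041). At day 14, 2 were higher and 0 lower, Ncapg, a condensin subunit (0.79 ± 0.18, adjusted p = 0.031), and Kif2c, a microtubule-depolymerising kinesin (0.49 ± 0.12, adjusted p = 0.0437). In wildtype cells 4 fell and 0 rose, Nuf2 by 0.90 on the log2 scale among them, and in IFNAR-/- cells 6 rose and 0 fell, including Dlgap5 (0.61 ± 0.13) and Cdca3 (0.48 ± 0.11). Their difference was above 0 in 2 of 40 at day 7 and in 35 of 40 at day 14, with medians of -0.30 and 0.23. Kif2c passed at day 14 without 3 of 12 single mice, Cenpa at day 7 without 3 and Pttg1 without 5.

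The regulators of G1 and the inhibitors had medians between -0.11 and 0.12 in the genotype comparisons of both days. Among 22 G1 and E2F regulators, Cdk6, a kinase that pairs with D cyclins, was 0.89, 1.02 and 0.93 in IFNAR-/- and 0.19, -0.42 and 0.11 in wildtype mice at day 7. It was the only one of the list past the test there, 0.99 ± 0.17 higher in IFNAR-/- cells (limma adjusted p = 0.0125), and it fell in those cells by 1.20 on the log2 scale to day 14. Ccnd2, cyclin D2, was 0.84, 0.25 and 0.67 in wildtype day 7 mice and -1.52, -2.47 and -1.73 in wildtype day 14 mice. It fell in both genotypes, 5.63-fold in wildtype cells (log2 change -2.49 ± 0.31, adjusted p = 0.00157) and 2.89-fold in IFNAR-/- cells (-1.53 ± 0.31, adjusted p = 0.0105), and was 1.51 ± 0.31 higher in IFNAR-/- cells at day 14 (adjusted p = 0.0231). Cdk4, another partner of D cyclins, rose in wildtype cells by 0.68 ± 0.15 (adjusted p = 0.0209).

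Of 13 inhibitors, Btg2, an antiproliferative protein, was 0.78, 0.20 and 0.31 in wildtype day 7 mice and -1.59, -1.94 and -2.22 in wildtype day 14 mice, a 5.08-fold fall (log2 change -2.35 ± 0.25, limma adjusted p = 0.000868). It was 1.40 ± 0.25 higher in IFNAR-/- cells at day 14 (adjusted p = 0.0128), the only inhibitor past the test there. Btg1, its relative, fell in wildtype cells by 0.88 on the log2 scale, and Ccng2, an atypical cyclin linked to arrest, fell in IFNAR-/- cells by 1.11. The wildtype day 14 group was therefore low in Btg2 and Ccnd2 as well as in the members, while mouse 3, its highest in 38 of 39 members, was the lowest for Btg2.

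Markers of T cells, NK cells and dendritic cells had median genotype differences below 0 at day 7 and above 0 at day 14, as the members had. The other marker lists had medians above 0 at day 7, and all of them but the monocyte list also at day 14. At day 7 and day 14 the medians were 0.64 and 0.49 for neutrophils and 0.55 and 0.13 for endothelium. They were 0.33 and 0.17 for alveolar macrophages, 0.18 and 0.25 for fibroblasts and 0.07 and 0.54 for lung epithelium. Monocyte markers had 0.05 and -0.07, B cell markers 0.01 and 0.14, and erythroid markers 0.18 and 0.26. Of 13 measured T cell markers, 12 differed below 0 at day 7 (median -0.64, 0 past the limma threshold) and 12 above 0 at day 14 (median 0.83). At day 14, 6 passed as higher in IFNAR-/- than in wildtype cells: Cd3d, Cd3g, Cd8b1, Lat, Cd27 and Thy1. The median log2 ratio of the 13 ranged over the mice from -0.08 to 0.42 in wildtype day 7 and -0.50 to -0.33 in IFNAR-/- day 7. At day 14 it ranged from -0.32 to 0.08 in wildtype and 0.22 to 0.82 in IFNAR-/- mice. Of 8 NK cell markers, the medians were -1.76 at day 7, with 1 past the threshold, and 0.91 at day 14, with 1. Of 10 dendritic cell markers, 7 were lower in IFNAR-/- cells at day 7 (median -1.03) and 2 higher at day 14 (median 0.32). At day 14, 2 of these 10 differed below 0, the lowest by -1.64. Of all genes, 1.35% passed as lower at day 7 and 1.75% as higher at day 14. Over time 8 T cell markers rose in IFNAR-/- cells (median 0.89) and 0 passed in wildtype cells (median -0.37), and 3 NK cell and 6 dendritic cell markers rose in IFNAR-/- cells. In wildtype cells the NK cell markers had a median change of -0.87, with 1 that fell, and the dendritic cell markers one of -0.61, with 2 that fell and 1 that rose. Lung epithelial markers had a median of -1.26 in wildtype and -0.81 in IFNAR-/- cells over time, and endothelial markers -0.99 and -1.12. Of 9 alveolar macrophage markers, 3 fell in wildtype cells (median -0.21) and 3 in IFNAR-/- cells (median -0.95). Of all genes, 3.88% rose and 4.1% fell in wildtype cells, and 4.08% rose and 8.25% fell in IFNAR-/- cells. Within the IFNAR-/- day 14 group the T cell median was 0.82, 0.70 and 0.22 and the member median 0.36, -0.13 and 0.16, so the mouse lowest for the members was not lowest for these markers. The ratios do not show whether any marker was near background, and the part of these cells in the members' differences was not tested.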

How the data were processed

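Pulmonary CD11c+ cells of 12 mice were measured on Affymetrix arrays, 3 mice in each of 4 groups, which were taken from the labels. The authors summarised probes with RMA, per the submitters' processing notes, which give no version. The deposited value is a linear ratio to about the median of the probe set over the 12 arrays, as read from the values: that median lay within 0.02 of 1 for 100% of 45101 probe sets. Log2 ratios were averaged over all probe sets with the same single gene symbol, giving 18193 genes, with no filter on low values, since ratios keep no level. A linear model with 1 mean per group was fitted to all genes with limma 3.58.1 in R 4.3.3 (8 residual and 3.21 prior degrees of freedom). Tests were two-sided, with Benjamini-Hochberg adjustment across the 18193 genes and a threshold of 0.05. The script was tested on simulated data.

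The members and gene lists were chosen with earlier results of these data known. Values in every mouse are given for members past the threshold in any comparison and for Mki67, Top2a, Cdk1, Rrm2, Mcm5 and Pcna. Of the other lists, up to 8 genes with the lowest p among those past the threshold in a comparison could be named. Further values of members were chosen for the text after they were seen. Alternatives covered normalization, probe set choice, variance prior, array weights, quality covariates, single mice left out and both IFNAR-/- arrays that stand apart left out. Replicates are separate mice, and precision is limited by there being 3 per group.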

Additional observations from a re-analysis of the deposited data

Results flagged for a closer look

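In 8 of 140 cell cycle genes, the 39 members and 101 of the further lists, the genotype difference itself changed between day 7 and day 14 by limma's test of that change, with Benjamini-Hochberg adjustment over all genes, which 2.48% of all genes passed. Cdk1 was the only one among the 39 members, at 1.15 ± 0.26 on the log2 scale, from -0.50 at day 7 to 0.66 at day 14. In 6 genes of the further lists (Pole, Nuf2, Kif2c, Ncapg, Mad2l1 and Btg2) the difference likewise went from below 0 to above 0. Pole changed by 1.27 ± 0.18, from -0.43 to 0.84 (adjusted p = 0.00876). Nuf2 changed by 1.34, from -0.93 to 0.41, and Kif2c by 0.80, from -0.31 to 0.49. Ncapg changed by 1.16, from -0.37 to 0.79, and Mad2l1, a spindle checkpoint protein, by 0.98, from -0.55 to 0.44.

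Btg2 changed by 1.51, from -0.11 at day 7 to 1.40 at day 14 (limma adjusted p = 0.049). Cdk6 went the other way, by -1.05, from 0.99 to -0.06 (adjusted p = 0.0485). Of these 8, Pole passed without each of the 12 mice in turn; Nuf2 passed in 4 of 12 such fits, Cdk1, Kif2c and Mad2l1 in 3, Ncapg and Btg2 in 2, and Cdk6 in 0.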

How the results depend on the processing

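Over the alternatives run, the median difference of the 39 members kept its sign in each of the 5 comparisons, from -0.41 to -0.22 at day 7, 0.30 to 0.66 at day 14, -0.78 to -0.38 in wildtype, 0.07 to 0.45 in IFNAR-/- cells and 0.55 to 1.02 for the change of the genotype difference. Among recomputed values of single named genes, 684 kept their side of the threshold, 271 no longer passed and 0 turned direction. Counts of calls did not hold, and the causes were not tested. In that order of comparisons the counts were 0, 2, 1, 5 and 1, and leaving out 1 mouse gave 0 to 0, 0 to 8, 0 to 11, 2 to 7 and 0 to 5. Array weights gave 4, 19, 15, 13 and 19. In the genotype comparisons at day 7 and day 14, more of all genes also passed with these weights than without them. Taking for each gene its probe set of largest standard deviation gave 6 at day 14, 3 in wildtype, 3 in IFNAR-/- cells and 3 for the change; every probe set by itself gave 8 at day 14, 3 in wildtype and 4 for the change. Another fit left out IFNAR-/- day 7 mouse 3 and IFNAR-/- day 14 mouse 2 and kept wildtype day 7 mouse 1. Its counts were 6 at day 14, 5 in wildtype, 3 in IFNAR-/- cells and 8 for the change. The 5′ over 3′ covariate gave 1 at day 7 and 0 at day 14, in wildtype and for the change; the poly-A covariate gave 1 at day 14 and 0 in wildtype and for the change. A fit of only the arrays compared gave 0 at day 14 and 3 in IFNAR-/- cells, and the trended and robust prior gave 1 at day 14 and 2 for the change. Quantile normalization applied again gave 2 in wildtype, and genes above the median standard deviation gave 2 for the change.

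The median of replication minus that of mitotic genes was 0.25, 0.16, 0.01, 0.04 and -0.03 in the 5 comparisons, and leaving out 1 mouse gave 0.16 to 0.26, 0.04 to 0.23, -0.03 to 0.19, -0.08 to 0.16 and -0.22 to 0.05. In IFNAR-/- cells it was -0.09 after quantile normalization, 0.22 by the most variable probe set and -0.17 with the narrower replication list; for the change it was 0.10 by that probe set.

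Mouse numbers were only names of different animals, and same-numbered mice did not deviate together: 3 of 18 pairs of arrays correlated above 0.1, from -0.40 to 0.23. With the number as a replicate block the counts were 0, 2, 3, 5 and 3.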
